A study of Mus musculus with 16 samples.

Results

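The lectin-like receptors that CD8+ T cells share with natural killer (NK) cells were followed in an RNA-sequencing experiment on cultured TCF1+CD8+ T cells. The 6 genes were found by symbol among the 54532 genes of the deposited count table and are Klrd1, Klrc1, Klrc2, Klrk1, Klrg1 and Klre1. Klrd1 had been chosen by its measured level, because it rose sharply with prostaglandin E2 (PGE2), and the others as its relatives, so the response of Klrd1 to PGE2 is given here as a description without a test. Its response to stimulation was not used in that choice and was tested, although those comparisons draw on the same libraries.

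Splenic naive CD8+ T cells of C57BL/6J mice had been activated repeatedly in culture with IL-2 and beads carrying antibodies to CD3 and CD28, which left cells expressing TCF1, a transcription factor of stem-like T cells. All 4 groups then received IL-2 at 85 U/ml, and each held 4 libraries. The groups were unstimulated untreated cells, unstimulated cells with PGE2 at 100 ng/ml, stimulated untreated cells, and stimulated cells with the same PGE2 dose. PGE2 or no PGE2 was given for 1 h before a 4 h period with IL-2 alone (unstimulated) or with 1 bead per cell (stimulated). The labels number the libraries 1 to 4 within each group without saying what libraries of the same number share, nor whether numbers stand for separate mice, so p-values measure the spread between these samples, which may be technical. Libraries held 22678254 to 42950763 counted read pairs.

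CD94, the product of Klrd1, reaches the cell surface as a heterodimer with a member of the NKG2 family. With NKG2A, encoded by Klrc1, it forms an inhibitory receptor that recruits phosphatases through tyrosine-based motifs. With NKG2C, encoded by Klrc2, it forms an activating receptor that signals through the adaptor DAP12. Both bind Qa-1, the non-classical MHC class I molecule encoded by H2-T23. NKG2D, encoded by Klrk1, forms a homodimer that signals through the adaptor DAP10 and recognizes stress-induced ligands. KLRG1 is an inhibitory receptor for cadherins and a marker of terminally differentiated effector CD8+ T cells, and KLRE1 pairs with the products of Klri1 and Klri2.

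All 6 genes lie on chromosome 6 (GRCm38). Klre1 (ENSMUSG00000050241, chr6:129577905-129585827) and Klrd1 (ENSMUSG00000030165, chr6:129591782-129598775) are on the plus strand. On the minus strand follow Klrk1 (ENSMUSG00000030149, chr6:129610323-129623864), Klrc2 (ENSMUSG00000052736, chr6:129647496-129660689) and Klrc1 (ENSMUSG00000030167, chr6:129666015-129678973). Klrg1 (ENSMUSG00000030114, chr6:122270596-122282882, minus strand) lies apart from this cluster. None of the 6 shares an exonic base with another annotated gene.

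Klrc1 and Klrc2 are close paralogues, with Klrc3 as the third copy, so the reads of these genes may not be fully separable. Over the aligned coding sequence, Klrc1 and Klrc2 were 83.1% identical, Klrc2 and Klrc3 94.9%, and Klrc1 and Klrc3 85.5%, whereas Klrd1 was 57.8% to 66.1% identical to the other lectin genes. Of all 100-base windows along the annotated transcripts, 14.6% of those of Klrc1 (304 of 2080) occurred unchanged in Klrc2. For Klrc2 the share was 7.09% (438 of 6179), of which 304 matched Klrc1 and 134 matched Klrc3. No such window of Klrd1, Klrk1, Klrg1 or Klre1 was found in another gene. A coding stretch of 90 bases is identical in Klrc1 and Klrc2 and is shown with that of Klrc3 (minus strand, Klrc1 at chr6:129677209-129677298, Klrc2 at chr6:129658728-129658817, Klrc3 at chr6:129641458-129641547). The reads of the study were longer than this stretch, and windows of full read length were not compared. Capitals mark the 11 bases at which Klrc3 differs from Klrc1, and Klrc2 has none.
Klrc1: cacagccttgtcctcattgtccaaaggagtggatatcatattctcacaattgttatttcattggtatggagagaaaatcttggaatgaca
Klrc2: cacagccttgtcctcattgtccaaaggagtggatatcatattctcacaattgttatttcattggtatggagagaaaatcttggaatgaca
Klrc3: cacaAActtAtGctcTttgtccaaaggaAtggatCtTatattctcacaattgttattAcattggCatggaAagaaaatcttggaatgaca

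Klrd1 was the most abundant of the 6 in every library, and Klrk1 came next. Per length, the mean level of Klrd1 was 141 ± 23.3 FPKM (SD, n = 4) in unstimulated untreated cells, 252 ± 45.7 with PGE2, 50.4 ± 3.29 in stimulated untreated cells and 134 ± 3.83 in stimulated cells with PGE2. Mean levels of Klrk1 in the same order of groups were 9.90, 12.5, 8.88 and 13.8 FPKM, and those of Klrc1 0.703, 1.73, 1.16 and 2.24 FPKM. Klrc2 reached at most a group mean of 0.161 FPKM and Klre1 0.138 FPKM, and their places in the order overlapped between libraries. The order Klrd1, Klrk1, Klrc1 was the same in all 16 libraries. Read for read, Klrc1 made up 66.0% to 88.2% of the counts of Klrc1 and Klrc2 in single libraries. Klrd1 exceeded the summed level of its partners Klrc1 and Klrc2 in every library, by 102 to 411 times in unstimulated untreated cells, 58.2 to 289 times in unstimulated cells with PGE2, 32.4 to 57.0 times in stimulated untreated cells and 34.3 to 84.1 times in stimulated cells with PGE2 (FPKM over FPKM). In bulk RNA, fewer cells expressing a gene and less RNA per cell cannot be told apart.

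**Figure D1:**
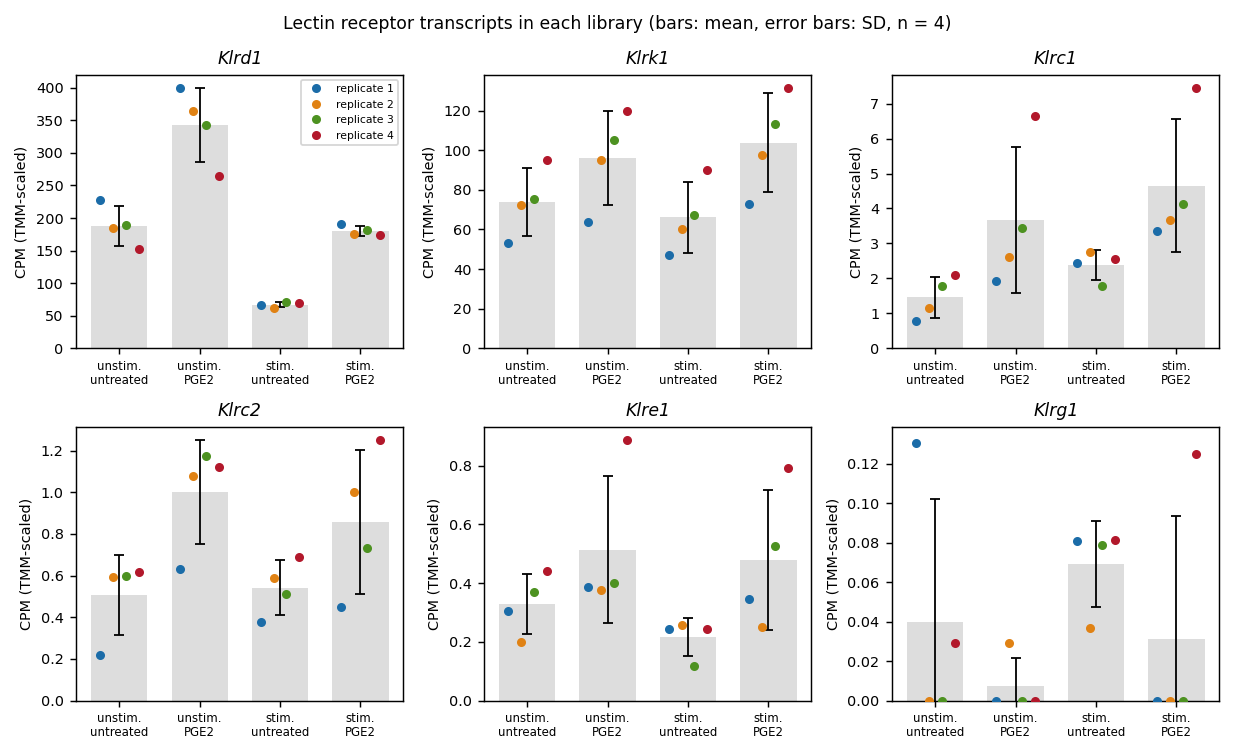
Level of each receptor gene in each library, in CPM (read counts per library total, scaled by TMM factors), with a linear axis from 0 for each gene. Bars are means and error bars SD over 4 libraries per group, and points are libraries coloured by replicate number. The Klrd1 libraries of stimulated untreated cells lie between 61.6 and 71.7 CPM, below all others, whereas the groups overlap for Klrk1.

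Klrd1 was higher with PGE2 in unstimulated and in stimulated cells, as its choice implies, and fell on stimulation. In CPM, which are counts scaled to the library total, the 4 unstimulated untreated libraries held 228, 184, 188 and 152 (replicates 1 to 4), and those with PGE2 held 399, 365, 343 and 264. Stimulated untreated libraries held 65.9, 61.6, 71.7 and 69.3 CPM, and stimulated libraries with PGE2 held 191, 175, 181 and 175. Stimulated cells with PGE2 thus lay within the range of unstimulated untreated cells, while the remaining pairs of groups did not overlap. The fitted difference with PGE2 was 0.84 log2 units (1.79-fold) in unstimulated and 1.42 (2.67-fold) in stimulated cells, a difference between states of 0.59. Within same-numbered libraries, the PGE2 library was higher by 1.74 to 1.98 times in unstimulated and by 2.52 to 2.89 times in stimulated cells. These PGE2 values chose the gene and carry no test. Among all genes, 28.4% of the 14505 tested in unstimulated cells and 9.84% of the 13922 tested in stimulated cells passed an adjusted p of 0.05 for PGE2. In 15.1% and 11.5% of them, the PGE2 group was higher with no overlap.

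Stimulation lowered Klrd1 2.82-fold in untreated cells (SE 0.106 on the log2 scale, edgeR adjusted p = 1.21e-07), a change called as differential expression, which required a fold change of at least 2 in addition to the adjusted p. The low stimulated untreated libraries enter both this fall and the PGE2 difference that chose the gene, so this p is not independent of the choice. With PGE2 present, stimulation lowered it by 0.87 log2 units (SE 0.110, 1.83-fold lower, edgeR adjusted p = 4.86e-05), which passed the test without reaching a fold of 2. Both groups compared here are PGE2 libraries that entered the choice of Klrd1, so this p is not independent of it either. All 4 same-numbered pairs were lower on stimulation in both settings, by 2.20 to 3.46 times without PGE2 and by 1.51 to 2.10 times with it. With PGE2 present no pairing was taken, so these ratios only describe the libraries. Changes on stimulation were common. Of the 14205 genes tested without PGE2, 66.5% passed the adjusted p, 23.2% were called as differential expression and 31.5% were lower on stimulation with no overlap of the groups. Of the 14507 tested with PGE2, the shares were 64.2%, 22.1% and 32.1%.

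**Figure D2:**
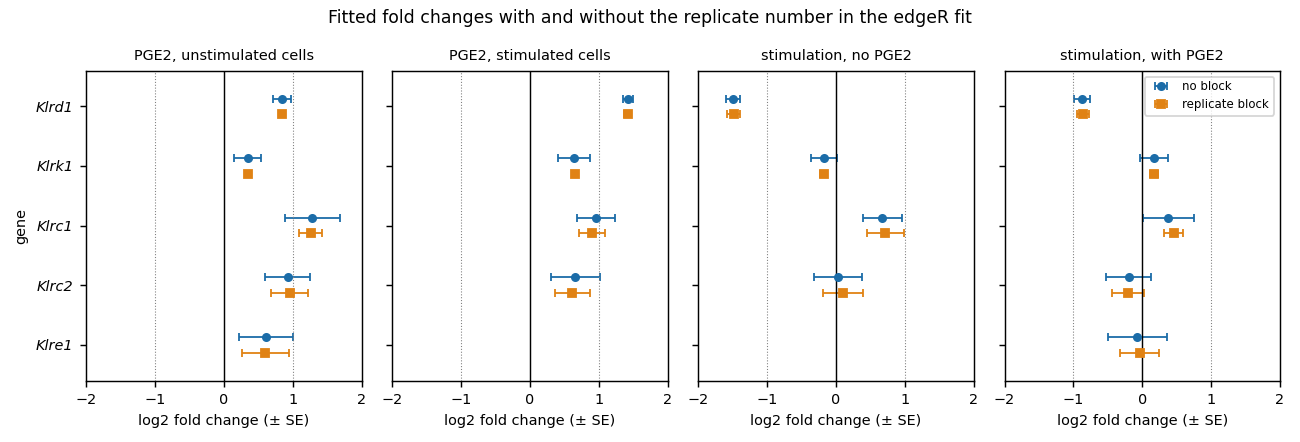
Fitted log2 fold changes (points) with their SE (bars) for PGE2 and for stimulation, without the replicate number in the edgeR fit (circles) and with it as a block (squares); dotted lines mark a fold of 2. Klrd1 values for PGE2 are descriptions. The SE of Klrk1 in unstimulated cells shrinks from 0.196 to 0.0410 with the block while its fold change stays at 0.35 and 0.34; Klrg1, and Klre1 in 2 comparisons, were below the count filter.

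Klrc1, which encodes the inhibitory CD94 partner NKG2A, rose with PGE2 in unstimulated cells. Untreated libraries held 0.784, 1.15, 1.79 and 2.09 CPM (18 to 71 counts) and PGE2 libraries 1.93, 2.62, 3.44 and 6.66 CPM (55 to 255 counts). The groups overlapped, because replicate 4 of the untreated group lay above replicate 1 of the PGE2 group. The fold change was 2.44 (log2 1.29, SE 0.394, edgeR adjusted p = 0.0300). Of the 4 members tested for PGE2 in unstimulated cells apart from Klrd1, Klrc1 was the 1 that passed and the 1 called as differential expression, against backgrounds of 28.4% and 3.38% of all tested genes. With the replicate block the log2 difference was 1.27 (SE 0.167, edgeR adjusted p = 9.28e-06). Without the block, the call was lost when any of 5 libraries was left out, at log2 fold changes of 0.82 to 1.39. Without untreated replicate 1, 2 or 3 or PGE2 replicate 3 the edgeR adjusted p lay between 0.0512 and 0.0790. Without PGE2 replicate 4 the log2 fold change was 0.82 (edgeR adjusted p = 0.0825).

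In stimulated cells, Klrc1 did not pass the test for PGE2. Untreated libraries held 2.45, 2.75, 1.77 and 2.56 CPM and PGE2 libraries 3.36, 3.66, 4.13 and 7.46 CPM. The groups did not overlap, as was the case in the same direction for 11.5% of all tested genes. The log2 difference was 0.96 (SE 0.275, edgeR adjusted p = 0.0543). With the replicate number as a block it was 0.90 (edgeR adjusted p = 0.00364), and without PGE2 replicate 1 it was 1.11 (edgeR adjusted p = 0.0265). It also passed with DESeq2 (adjusted p = 0.00962) and without a count filter (edgeR adjusted p = 0.0289). All 4 same-numbered pairs were higher with PGE2 in each state, by 1.92 to 3.19 times in unstimulated and 1.33 to 2.91 times in stimulated cells.

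Stimulation without PGE2 raised Klrc1 by 0.67 log2 units (SE 0.279, edgeR adjusted p = 0.0482), in the direction opposite to Klrd1. This call was lost without unstimulated replicate 1, 2 or 3 or stimulated replicate 1, 2 or 4, with log2 values of 0.49 to 0.77 (edgeR adjusted p = 0.0505 to 0.124), with upper-quartile scaling (0.57, edgeR adjusted p = 0.0990), in the fit of all 16 libraries (0.69, edgeR adjusted p = 0.121) and with limma on log2(FPKM + 1) without a filter (0.35, limma adjusted p = 0.0850). With the block it was 0.72 (edgeR adjusted p = 0.0376). With PGE2 present, the stimulation difference of Klrc1 was 0.38 (SE 0.376, edgeR adjusted p = 0.390). Without unstimulated PGE2 replicate 4, the library with 6.66 CPM, it was 0.85 (edgeR adjusted p = 0.0378).

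Klrc2, which encodes the activating partner NKG2C, was represented by 5 to 43 counts per library. In unstimulated cells, untreated libraries held 0.218, 0.594, 0.596 and 0.618 CPM and PGE2 libraries 0.630, 1.08, 1.17 and 1.12 CPM. The groups did not overlap (15.1% of all tested genes did not overlap in that direction), yet the log2 difference of 0.92 (SE 0.328) did not pass the test (edgeR adjusted p = 0.0557). With the replicate block it was 0.95 (edgeR adjusted p = 0.00778), and without PGE2 replicate 1 it was 1.08 (edgeR adjusted p = 0.0249). In stimulated cells, libraries held 0.377, 0.586, 0.513 and 0.691 CPM without PGE2 and 0.450, 0.999, 0.731 and 1.25 CPM with it. These groups overlapped, with a log2 difference of 0.66 (SE 0.360, edgeR adjusted p = 0.262). The stimulation differences of Klrc2 were 0.03 without and -0.20 with PGE2 (edgeR adjusted p = 0.955 and 0.620). Because part of each Klrc1 and Klrc2 transcript is shared, the division of reads between the pair is uncertain.

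Klrk1, which encodes NKG2D, differed more between replicate numbers than between groups. Unstimulated untreated libraries held 53.2, 72.3, 75.6 and 95.2 CPM and those with PGE2 held 63.8, 94.9, 105 and 120 CPM. Stimulated untreated libraries held 47.1, 60.3, 67.5 and 89.9 CPM and those with PGE2 held 72.7, 97.8, 113 and 132 CPM. In each of the 4 groups the library numbered 1 was the lowest and that numbered 4 the highest, 1.79 to 1.91 times apart, and every pair of groups overlapped. The replicate number accounted for 98.0% of the within-group variance of Klrk1 on the log2 scale, against a median of 50.9% over 12251 genes. It accounted for 87.0% for Klrc2, 64.5% for Klrc1, 55.5% for Klre1 and 48.5% for Klrd1.

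The tests of Klrk1 changed with the replicate block. Without it, the PGE2 difference was 0.35 log2 units in unstimulated cells (SE 0.196, edgeR adjusted p = 0.222) and 0.64 in stimulated cells (SE 0.231, edgeR adjusted p = 0.106), neither past the threshold. With it, the differences were 0.34 (SE 0.0410, edgeR adjusted p = 3.01e-06) and 0.65 (SE 0.0450, edgeR adjusted p = 3.12e-06). Klrk1 was higher with PGE2 in 4 of 4 same-numbered pairs in each state, by 1.20 to 1.39 times in unstimulated and 1.47 to 1.68 times in stimulated cells. The block also raised the share of all tested genes that passed, from 28.4% to 47.8% in unstimulated and from 9.84% to 39.8% in stimulated cells. Without the block, leaving out PGE2 replicate 1 gave an edgeR adjusted p of 0.0357 in unstimulated cells, and leaving out PGE2 replicate 1 or untreated replicate 4 gave 0.0269 and 0.0420 in stimulated cells. Klrk1 in stimulated cells also passed with DESeq2 (adjusted p = 0.0410) and without a count filter (edgeR adjusted p = 0.0485).

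For stimulation without PGE2, Klrk1 differed by -0.18 log2 units (SE 0.194, edgeR adjusted p = 0.440), and by -0.18 with the block (SE 0.0522, edgeR adjusted p = 0.0119). It was lower on stimulation in 4 of 4 same-numbered pairs, by 1.06 to 1.20 times. With PGE2 present the difference was 0.17 (SE 0.206, edgeR adjusted p = 0.492). The stimulated library was higher in 4 of 4 same-numbered pairs, by 1.03 to 1.14 times, although no pairing was taken for this comparison.

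**Figure D3:**
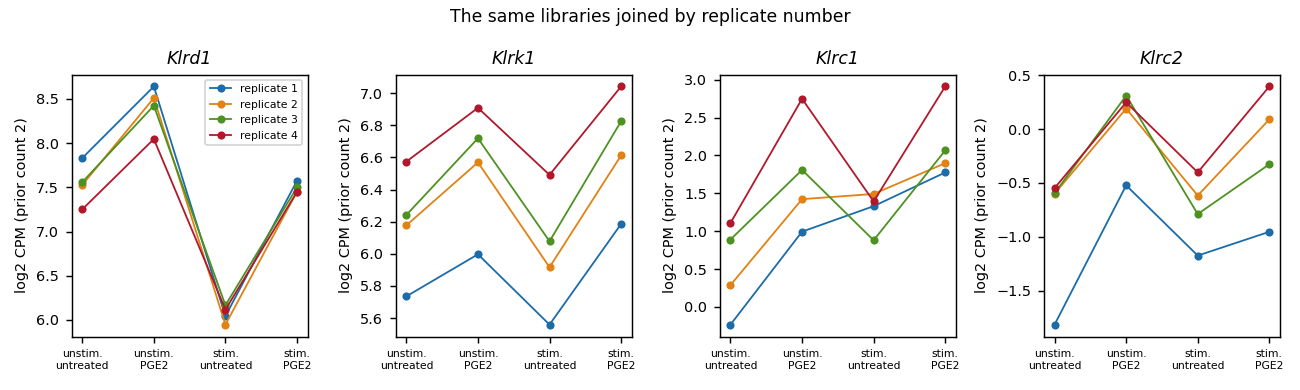
Log2 CPM of Klrd1, Klrk1, Klrc1 and Klrc2 in the 4 groups, with lines joining libraries of the same replicate number. The Klrk1 lines keep their order in all 4 groups, with the libraries numbered 1 lowest and those numbered 4 highest, whereas in Klrd1 the libraries numbered 4 are lowest in 3 of 4 groups.

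The deviations of single libraries from their group mean were also compared between the members. Over the 16 libraries, within-group deviations of Klrd1 correlated negatively with those of Klrc1 (Pearson r = -0.86), Klrk1 (r = -0.61), Klrc2 (r = -0.59) and Klre1 (r = -0.56). Those of Klrk1 and Klrc2 (r = 0.85), Klrc1 and Klrk1 (r = 0.72), and Klrc1 and Klre1 (r = 0.81) correlated positively. The remaining pairs gave r = 0.68 for Klrc1 and Klrc2, 0.47 for Klrk1 and Klre1, and 0.27 for Klrc2 and Klre1. The library numbered 4 was the lowest for Klrd1 and the highest for Klrc1 in 3 of 4 groups each. These coefficients describe libraries that share numbers and sequencing, and Klrc1 and Klrc2 share part of their transcript sequence. The replicate number carried a median of 50.9% of the within-group variance over 12251 genes. Such coefficients were not computed for other genes, so no opposition particular to Klrd1 is read from them.

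Klre1, which encodes an NK-type receptor subunit, was close to the limit of the count filter. Unstimulated untreated libraries held 0.305, 0.198, 0.369 and 0.441 CPM and those with PGE2 held 0.385, 0.378, 0.401 and 0.887 CPM. Stimulated libraries held 0.118 to 0.256 CPM without PGE2 and 0.250 to 0.792 CPM with it. The PGE2 libraries of unstimulated cells overlapped the untreated ones, at a log2 difference of 0.61 (SE 0.395, edgeR adjusted p = 0.283). The stimulation difference with PGE2 was -0.07 (SE 0.424, edgeR adjusted p = 0.898). The remaining pairs of groups were not tested for Klre1, since too few libraries reached the minimum count.

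Klrg1, the marker of terminally differentiated effector cells, was at or below the floor of these libraries. It had 0 counts in 8 of 16 libraries, at most 3 counts in any, and 16 counts in all. In the 8 libraries with 0 counts, a level of up to 0.0783 to 0.125 CPM is allowed, depending on the library and covering counting error only. No test was made, and no order of groups was read from these counts.

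By comparison, then, the members gave the following calls apart from Klrd1. For PGE2 in unstimulated cells, 1 of 4 tested members passed (Klrc1), and with the block 3 of 4 (Klrc1, Klrk1 and Klrc2). Of all tested genes, 28.4% passed there without the block and 47.8% with it. For PGE2 in stimulated cells, 0 of 3 passed, and with the block 2 of 3 (Klrc1 and Klrk1), against 9.84% and 39.8%. For stimulation without PGE2, 1 of 3 passed (Klrc1), and with the block 2 of 3 (Klrc1 and Klrk1), against 66.5% and 72.3% of all tested genes. For stimulation with PGE2, 0 of 4 passed in the fit without a block, against 64.2%. In the fit without a block, the interaction, which is the difference between the PGE2 responses of the states, passed for 0 of 4 and was 0.32 for Klrk1, -0.31 for Klrc1, 0.53 for Klre1 and -0.25 for Klrc2 (edgeR adjusted p = 0.894 to 0.965), and 0.749% of the 15096 genes tested passed it.

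The genes that accompany these receptors were then examined from lists of ligands, of adaptor and signalling genes, and of other lectin genes of the NK gene complex. Beside the counts of these lists, 28.4% of all tested genes passed for PGE2 in unstimulated cells and 9.84% in stimulated cells. With the block these shares were 47.8% and 39.8%. For stimulation, 66.5% passed without PGE2 (72.3% with the block) and 64.2% with PGE2. Of 12 listed ligands, 9 had a row in the table. Of the 5 tested for PGE2 in unstimulated cells, 0 were higher and 1 lower, with a median log2 difference of -0.04 beside -0.00 over all tested genes (1 higher and 1 lower with the block), and in stimulated cells 0 of 3 were higher and 1 lower (median 0.02 beside -0.01). For stimulation without PGE2, 1 of 4 was higher and 3 lower (median -0.92 beside -0.03), with the same counts in the presence of PGE2 (median -1.11 beside 0.00).

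H2-T23, which encodes the CD94/NKG2 ligand Qa-1, was abundant in all groups, at means of 475, 508, 626 and 638 CPM from unstimulated untreated to stimulated PGE2 cells. It rose on stimulation by 0.39 log2 units without and 0.38 with PGE2 (edgeR adjusted p = 0.00153 and 0.00118), and its PGE2 differences were 0.07 and 0.02 (edgeR adjusted p = 0.420 and 0.872). The cells thus held transcripts of the receptor and of its ligand. Ulbp1, which encodes the NKG2D ligand MULT1, fell on stimulation by 0.96 log2 units without PGE2 and by 0.70 with it (edgeR adjusted p = 2.91e-05 and 0.00249), and H60b, another NKG2D ligand gene of under 2 CPM, fell by 1.99 and 1.56 (edgeR adjusted p = 9.12e-04 and 0.00327). Without the block, Ulbp1 did not pass the test for PGE2 in either state, nor did H60b in unstimulated cells. In stimulated cells H60b was below the count filter and was not tested for PGE2. With the block, H60b rose with PGE2 in unstimulated cells by 0.65 (edgeR adjusted p = 0.0418). Raet1d lay at group means of 0.181 to 0.411 CPM, and its PGE2 difference in unstimulated cells was -0.53 (edgeR adjusted p = 0.428).

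Cdh1, which encodes the KLRG1 ligand E-cadherin, was the listed ligand that changed in all 4 comparisons. Its group means were 5.19 ± 0.825 CPM in unstimulated untreated cells, 2.35 ± 0.335 with PGE2, 2.85 ± 0.469 in stimulated untreated cells and 0.791 ± 0.0714 in stimulated cells with PGE2 (SD, n = 4). It fell with PGE2 by 1.18 log2 units in unstimulated cells and by 1.84 in stimulated cells (edgeR adjusted p = 3.46e-04 and 5.55e-04), and on stimulation by 0.88 and 1.51 (edgeR adjusted p = 6.80e-04 and 5.58e-05). The difference between its PGE2 effects did not pass the test (-0.66, edgeR adjusted p = 0.372).

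Of the 15 adaptor and signalling genes, 3 were higher and 4 lower with PGE2 among 14 tested in unstimulated cells (median -0.12 beside -0.00 over all tested genes), and 1 was higher and 2 lower among 13 in stimulated cells (median -0.12 beside -0.01). With the replicate block these counts were 3 higher and 6 lower in unstimulated cells, and 4 higher and 5 lower in stimulated cells. For stimulation, 5 rose and 5 fell among 14 without PGE2 (median -0.12 beside -0.03, and 5 and 7 with the block), and 5 rose and 4 fell with PGE2 (median -0.01 beside 0.00). The adaptors differed in level. Hcst, which encodes the NKG2D adaptor DAP10, lay at group means of 27.8 to 35.5 CPM and did not pass in any comparison without the block, with log2 differences of -0.27, -0.16, -0.20 and -0.06 (edgeR adjusted p = 0.259 to 0.685). With the block it fell with PGE2 in unstimulated cells by 0.25 (edgeR adjusted p = 0.00196) and on stimulation without PGE2 by 0.19 (edgeR adjusted p = 0.0272). Tyrobp, which encodes the NKG2C adaptor DAP12, lay at group means of 0.0746 to 0.229 CPM and was not tested.

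Ptpn6, which encodes SHP-1, a phosphatase recruited by inhibitory receptors such as NKG2A, fell with PGE2 in unstimulated cells by 0.89 log2 units (SE 0.054, edgeR adjusted p = 2.98e-06). Its mean was 369 ± 11.9 CPM without and 203 ± 7.49 CPM with PGE2 in unstimulated cells, and 590 ± 35.3 and 501 ± 30.4 CPM in stimulated cells (SD, n = 4). In stimulated cells the PGE2 difference was -0.24 (SE 0.083, edgeR adjusted p = 0.0957), and -0.24 with the block (edgeR adjusted p = 0.00376). The interaction of 0.66 passed the test (edgeR adjusted p = 0.00382). Stimulation raised Ptpn6 by 0.67 without and 1.36 with PGE2 (edgeR adjusted p = 2.97e-06 and 1.10e-06).

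Of the signalling genes past a fold of 2 in some comparison, Lcp2, which encodes the scaffold SLP-76, rose on stimulation by 1.94 and 1.68 log2 units. Pik3r1, a regulatory subunit of phosphoinositide 3-kinase, fell by 1.47 and 1.26, and the phospholipase gene Plcg1 fell by 1.14 and 1.10. With PGE2 in unstimulated cells, Plcg1 and Pik3r1 rose by 0.48 and 0.41 and Lcp2 fell by 0.28, and Lcp2 fell by 0.58 in stimulated cells (edgeR adjusted p = 1.71e-08 to 0.0271 over these changes).

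**Figure D4:**
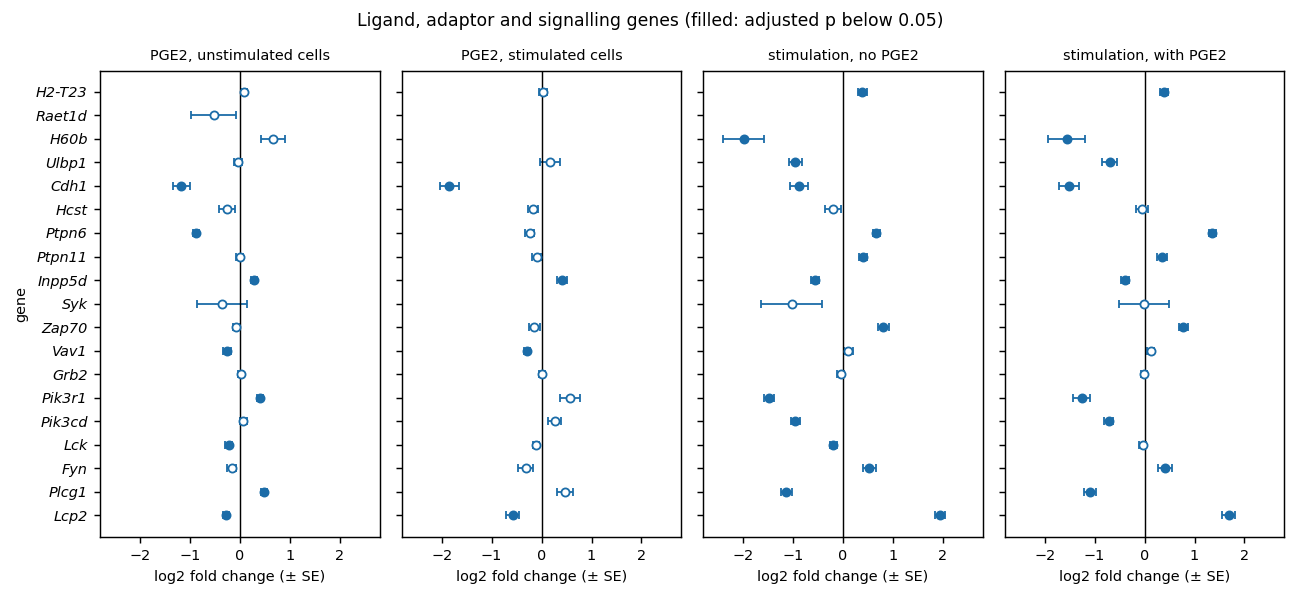
Log2 fold changes (points) with SE (bars) of the ligand, adaptor and signalling genes that passed the count filter, for PGE2 in unstimulated and stimulated cells and for stimulation without and with PGE2. Filled points have an edgeR adjusted p below 0.05. Cdh1 lies below 0 in all 4 panels, and Hcst is open in all 4.

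Other lectin genes of the NK gene complex were mostly near 0. Of 35 listed, 34 had a row and 3 reached a group mean of 1 CPM, and 5 were tested in unstimulated cells for PGE2, of which 0 were higher and 2 lower (median -0.45 beside -0.00), while 0 of 4 passed in stimulated cells (median -0.06 beside -0.01). With the block, 1 was higher and 2 lower in unstimulated cells, and 1 was higher and 1 lower in stimulated cells. For stimulation, 1 of 5 rose and 2 fell without PGE2 (median -0.42 beside -0.03), and 1 rose and 1 fell with PGE2 (median -0.02 beside 0.00). The gene that rose was Cd69, an early activation marker, by 3.43 and 3.34 log2 units (edgeR adjusted p = 2.31e-08 and 4.88e-06). Klrb1f, an NKR-P1 family gene, fell by 2.19 and 1.09 (edgeR adjusted p = 2.21e-04 and 0.0125). With PGE2 in unstimulated cells, Cd69 fell by 0.45 and Clec2i by 0.49 (edgeR adjusted p = 0.0149 and 0.00175).

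Within 100 kb of the cluster from Klre1 to Klrc1, 19 genes were annotated. Of these, 4 had a mean of at least 1 CPM over all libraries (Gabarapl1, Klrd1, Klrk1 and Klrc1), and 7 lay below 0.02 CPM. Klrc3, between Klrk1 and Klrc2, had group means of 0.0459 to 0.0858 CPM. Klri2, whose product pairs with KLRE1, had means of 0.466, 0.825, 0.338 and 0.842 CPM and did not pass in any comparison without the block (log2 PGE2 difference 0.77 in unstimulated and 1.31 in stimulated cells, edgeR adjusted p = 0.121 and 0.0912). With the block these differences were 0.78 and 1.33 (edgeR adjusted p = 0.0416 and 0.00457). Gabarapl1, an autophagy gene upstream of the cluster, rose with PGE2 in unstimulated cells by 0.33 (edgeR adjusted p = 0.00153) and on stimulation without PGE2 by 0.70 (edgeR adjusted p = 1.66e-06), where Klrd1 fell.

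**Figure D5:**
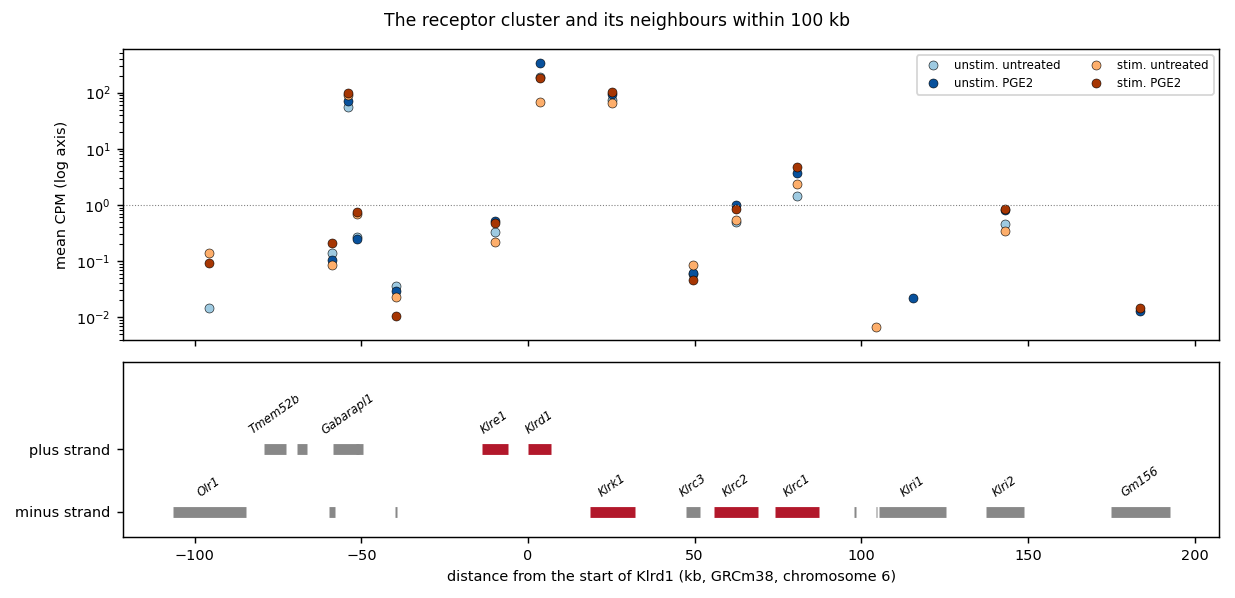
The receptor genes and their neighbours on chromosome 6, by distance from the start of Klrd1 in kb. The upper panel gives the mean CPM of each gene in the 4 groups (log axis, values of 0 not drawn, dotted line at 1 CPM), and the lower panel gives gene positions by strand with the receptor genes in red. The group means of Klrd1 and Klrk1 lie between 66.2 and 343 CPM, and Klrc3, between Klrk1 and Klrc2, stays below 0.1 CPM.

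RefSeq (GRCm38.p6) start sites were available for 4 of the 6 genes. Those of Klrc2 and Klre1 lie inside the gene spans given above, downstream of the annotated gene starts. The 250 bases before the start of Klrk1 (chr6:129623865-129624114, minus strand), Klrc2 (the entry farther upstream, chr6:129660597-129660846, minus strand) and Klrc1 (chr6:129678974-129679223, minus strand) are shown because these genes varied together between libraries. Each was searched on both strands for the full cyclic AMP response element TGACGTCA, its core TGACG (which the full element contains), AP-1 sites TGANTCA, T-box sites AGGTGTGA, RUNX sites TGTGGTT, TCF/LEF sites CTTTGAT and NR4A sites AAAGGTCA. Capitals mark the matches: a RUNX site 129 bases before the start of Klrk1, and the core element, read on the other strand, 67 bases before that of Klrc2. Klrc1 held none.
Klrk1: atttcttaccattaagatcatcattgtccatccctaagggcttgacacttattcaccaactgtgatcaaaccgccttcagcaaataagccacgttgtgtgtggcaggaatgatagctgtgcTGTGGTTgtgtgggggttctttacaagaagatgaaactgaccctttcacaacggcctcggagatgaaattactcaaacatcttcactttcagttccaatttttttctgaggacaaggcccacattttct
Klrc2: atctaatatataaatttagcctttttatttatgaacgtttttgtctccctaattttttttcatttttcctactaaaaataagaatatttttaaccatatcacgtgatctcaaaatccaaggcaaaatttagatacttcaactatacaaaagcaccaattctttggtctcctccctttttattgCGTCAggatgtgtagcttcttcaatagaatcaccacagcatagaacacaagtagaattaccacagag
Klrc1: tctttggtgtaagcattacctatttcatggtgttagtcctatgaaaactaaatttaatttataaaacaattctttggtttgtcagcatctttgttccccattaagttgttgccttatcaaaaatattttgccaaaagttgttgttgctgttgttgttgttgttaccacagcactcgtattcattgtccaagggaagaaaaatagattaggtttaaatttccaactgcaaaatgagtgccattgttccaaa

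Klre1 held a RUNX site 229 bases before the upstream of its RefSeq start sites. This site, like the match of Klrc2, lies inside the annotated gene. Among 32851 promoters of the same length, 4.40% held a RUNX site, 17.8% the core element, 1.55% the full element, 6.75% an AP-1 site, 1.12% a T-box site, 3.21% a TCF/LEF site and 1.34% an NR4A site, so a match describes the letters and no more.

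The genes whose log2 CPM followed each receptor most closely over the 16 libraries were sought among the 12250 genes whose mean was 1 CPM or more. For Klrd1 these included Gimap6 (Pearson r = 0.992), Pde4b (r = 0.990), Abcb1a (r = 0.990) and Abcb9 (r = 0.985). Pde4b encodes a cyclic AMP phosphodiesterase and Abcb1a the efflux pump P-glycoprotein. Their choice by likeness to Klrd1 implies that they share its pattern, and the values only describe it. Each had its highest group mean in unstimulated cells with PGE2 and its lowest in stimulated untreated cells, for example 56.8 and 7.34 CPM for Abcb1a and 89.2 and 28.6 CPM for Pde4b. For Klrk1 the closest were Bcar1 (r = 0.937), Atp7b (r = 0.919) and Itpr1 (r = 0.905), and for Klrc1 they were Pcgf5 (r = 0.917), Plxnc1 (r = 0.915) and Tfe3 (r = 0.912). No gene was among the closest of more than 1 receptor, with only a few taken for each from 12250.

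Markers of other cells were measured to place these levels. All 7 CD8+ T cell markers, Tcf7 included, had group means of at least 1 CPM in every group and summed to 3027 to 4725 CPM per library. The 8 NK cell markers summed to 0.439 to 1.45 CPM, with Ncr1 and Klra8 at 0 in all groups. The 3 B cell markers summed to 4.10 to 5.59 CPM in the libraries numbered 3 and to 0.754 to 2.30 CPM in the others, the 4 myeloid markers to at most 0.355 CPM, the 3 erythroid markers to at most 0.431 CPM and the 3 gamma-delta T cell markers with a row to 1.58 to 3.66 CPM. The CD4 T cell pair, Cd4 and Zbtb7b, summed to 10.6 to 37.7 CPM, mostly Zbtb7b. NK cell markers summed to 0.538 to 1.31 CPM in the libraries numbered 1, where Klrk1 was lowest, and to 0.542 to 1.00 CPM in those numbered 4, where it was highest. These sums rest on a few counts per gene, and the source of the Klrk1 differences between numbers was not tested.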

How the data were processed

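RNA of cultured mouse TCF1+CD8+ T cells was sequenced as poly(A)-selected paired-end libraries (16 libraries, 4 groups of 4 by the labels). Per the labels and methods, the authors aligned reads to GRCm38 with HISAT2 2.0.5 and deposited counts per gene from featureCounts 1.5.0-p3. They also deposited FPKM, used here to compare levels between genes and as an alternative. Use of strand and of multiply mapped reads is not given in the sources used here. No other sample columns were present. The members and gene lists were chosen with earlier results of these data known.

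Counts were tested with edgeR 4.0.16 (R 4.3.3), using filterByExpr with a minimum count of 10, TMM factors, the quasi-likelihood test (2-sided) and Benjamini-Hochberg adjustment over all genes tested, in fits of the 8 libraries compared, or of 16 for the interaction. Passing meant an adjusted p under 0.05, and differential expression also a fold of at least 2 (log2 1 for the interaction). The steps were tested on simulated data with 200 changed genes. Named were the 6 members, listed genes past a fold of 2 or acting as ligand, adaptor or neighbour, and the genes closest in pattern (5 for Klrd1, of which 1 is not reported here, and 3 for other members of at least 1 CPM); Clec2i was added after its values were seen.

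Deviations from group means correlated between same-numbered libraries at 0.137 to 0.443 (PGE2, unstimulated), 0.191 to 0.425 (PGE2, stimulated) and 0.112 to 0.361 (stimulation without PGE2). By this check alone, the numbers were taken to pair these samples. The blocked p-values rest on this pairing, which was drawn from the same data. Unlike numbers were not always less alike. For PGE2 in stimulated cells, untreated 1 with PGE2 2 gave 0.248, 2 with 1 gave 0.213 and 4 with 3 gave 0.254, beside 0.191 for 2 with 2. There 3 with 4 gave 0.184, and other unlike numbers were negative, down to -0.388. For stimulation without PGE2, unstimulated 3 with stimulated 4 gave 0.128, beside 0.112 for 2 with 2. Taking deviations from the mean of 4 libraries itself lowers the values of unlike numbers, so negative values there do not bear on the pairing. For stimulation with PGE2 the same-numbered range was 0.0437 to 0.281, and no pairing was taken. Alternatives were DESeq2 1.42.0, RLE and upper-quartile scaling, other count filters, a replicate block, a single fit of 16 libraries, limma 3.58.1 on log2(FPKM + 1) and log2(FPKM + 0.1), and leaving out each library. Transcript and coding sequences came from GENCODE M21 and promoters from RefSeq.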

Additional observations from a re-analysis of the deposited data

Results flagged for a closer look

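In unstimulated untreated cells, Klrc2 stood at 0.218 CPM (5 counts) in replicate 1 and at 0.594 to 0.618 CPM in the others, a gap of 0.940 of the group's range, above the critical value of Dixon's test for 4 samples. In unstimulated cells with PGE2, Klre1 stood at 0.887 CPM (34 counts) in replicate 4 and at 0.378 to 0.401 CPM in the others, a gap of 0.954 of the range. Of 19 groups tested in this way, chance would mark about 1 in 20.

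Ptpn6, which encodes the phosphatase SHP-1, responded to PGE2 differently in the 2 states. The interaction was 0.66 log2 units (SE 0.098, edgeR adjusted p = 0.00382), from a difference of -0.89 in unstimulated and -0.24 in stimulated cells.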

How the results depend on the processing

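Apart from Klrd1, the count of members called for PGE2 in unstimulated cells fell from 1 to 0 with limma on log2(FPKM + 1), on log2(FPKM + 0.1) and on log2(FPKM + 1) without a filter, and ranged from 0 to 2 when 1 library was left out (2, Klrc1 and Klrc2, without PGE2 replicate 1). In stimulated cells it ranged from 0 to 1 (Klrc1, without PGE2 replicate 1). With Klrd1 included, the count for stimulation was 2 (Klrc1 and Klrd1) instead of 1 (Klrd1) without PGE2 and 1 (Klrd1) instead of 0 with it when no fold was required. The cause was not tested. The pairing by replicate number left the counts of members called past a fold of 2 as they were: apart from Klrd1, 1 and 0 for PGE2 and 0 for the interaction, and with Klrd1, 1 and 0 for stimulation. With the replicate block, for the comparisons where no pairing was taken, Klrc1 (0.46, adjusted p = 0.0248) and Klrk1 (0.17, adjusted p = 0.0262) passed for stimulation with PGE2, and Klrk1 (0.32, adjusted p = 0.0298) for the interaction; apart from these and the values given in the report, the block changed no call of a member other than Klrd1, whose PGE2 and interaction values carry no test. Over single log2 fold changes, 179 kept direction and side of the threshold under other settings, 13 gained and 6 lost the call, and 1 reversed (Klrc2 for stimulation without PGE2, -0.070 with upper-quartile factors); with 1 library left out, 198 kept both, 6 gained, 11 lost and 9 reversed. The reversals were in Klrc2 for stimulation without PGE2 (range -0.19 to 0.20) and with it (-0.42 to 0.029), Klrk1 (-0.012 to 0.32) and Klre1 (-0.38 to 0.35) for stimulation with PGE2, and Klrc1 for the interaction (-0.65 to 0.14), none past the threshold. Over all genes, 841 higher and 529 lower genes passed for PGE2 in stimulated cells, 1245 and 976 with DESeq2, 1234 and 927 in the fit of 16 libraries, 2662 and 2882 with the block, and 431 and 248 with limma without a filter; in unstimulated cells 1869 and 2253 passed, and 3428 and 3510 with the block. Upper-quartile factors moved the median of all genes for stimulation with PGE2 from 0.00 to -0.13 and its differential expression from 1841 higher and 1369 lower to 1560 and 1758. Depth limits Klrg1, Klre1 and Klrc2, and the part of mapping between Klrc1 and Klrc2 was not tested.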
